A study of Mus musculus with 8 samples.

Results

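The genes described here are 10 genes of macrophage lipid transport and storage, the apolipoprotein gene Apoe, the transfer protein gene Pltp, the efflux pump genes Abca1 and Abcg1, the lipase gene Lpl, the fatty acid binding protein genes Fabp4 and Fabp5, and the lipid droplet genes Plin2, Dgat2 and Pnpla2. They were chosen by symbol as genes of apolipoproteins, efflux, lipases and lipid droplets, and each of the 10 had 1 row among the 25572 gene identifiers of the table. RNA sequencing had been done on cells labelled as neutrophils that infiltrated PyMT-N tumours of C57/B6 mice and were sorted by flow cytometry on surface ICAM1, an adhesion molecule also called CD54. There were 4 ICAM1-high (CD54-positive) and 4 ICAM1-low (CD54-negative) libraries, numbered 1, 2, 3 and 5 in each group, and each was made from 150 pg of total RNA. No transgene, treatment, age or time is given for either group, PyMT-N is not explained further, and the labels do not say whether each library came from an animal of its own. The p-values therefore measure only how these libraries vary, and that variation may be technical.

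Macrophages take up lipoproteins and dying cells, break their lipids down in lysosomes, and then either export the cholesterol or store it as esters and triglycerides in droplets. Export runs through ABC transporters that load lipid onto apolipoproteins, and the genes of this route, Apoe, Abca1, Abcg1 and Pltp among them, are known targets of the liver X receptors, which sense oxidised cholesterol. Storage and release are balanced by acyltransferases that make triglyceride, perilipins that coat the droplet and lipases that open it.

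The libraries held 15940328 to 21825096 estimated counts, and levels are given as CPM, the count scaled to the TMM-adjusted library size, with values per library always in the order of replicates 1, 2, 3 and 5. A floor of 3 counts, which covers counting error alone, equalled 0.121 to 0.263 CPM. The sort gene Icam1 had 48.2, 58.4, 42.4 and 122 CPM in the ICAM1-high libraries and 18.7, 9.23, 4.31 and 138 CPM in the ICAM1-low libraries, so that the library labelled ICAM1-low replicate 5 lay above all 4 ICAM1-high libraries (log2 fold change 0.67, edgeR adjusted p = 0.754; 2.64 and 0.0483 without that library). That library also had the lowest TMM factor, 0.7177 against 0.9563 to 1.169 in the other 7. Macrophage markers were present in every library beside the neutrophil label. The 11 markers summed to 4256 to 11038 CPM in the ICAM1-high and to 672 to 971 CPM in the ICAM1-low libraries. All 11 had log2 fold changes above 0. Of them 7 were called higher by edgeR (adjusted p under 0.05), beside 1.22% of all genes tested. The 10 neutrophil markers summed to 1457 to 4041 CPM in the ICAM1-high and 5828 to 27464 CPM in the ICAM1-low libraries. All 10 had log2 fold changes below 0, and 4 were called lower, beside 0.273% of all genes tested. The 6 T and NK cell markers summed to 45.5 to 115 CPM in the ICAM1-high against 0.0877 to 34.4 CPM in the ICAM1-low libraries, with Cd4 called higher. Cd4 was the largest part in each ICAM1-high library, at 42.5, 57.6, 25.7 and 46.4 CPM. Cd3e had 0.0475, 19.5, 7.19 and 5.74 CPM in the ICAM1-high libraries, below the floor in replicate 1, and at most 0.102 CPM in the ICAM1-low libraries. In ICAM1-low replicate 3 most of the sum was Klrb1c, at 31.5 CPM. The 6 dendritic cell markers summed to 559 to 1449 CPM in the ICAM1-high against 47.3 to 91.2 CPM in the ICAM1-low libraries. Most of that last sum was H2-Eb1, an MHC class II gene that macrophages also express, at 543 to 1429 CPM in the ICAM1-high against 40.7 to 78.5 CPM in the ICAM1-low libraries. The sums of the 5 monocyte markers overlapped, at 528 to 1238 CPM in the ICAM1-high against 562 to 2043 CPM in the ICAM1-low libraries, with Ccr2 called higher and Ly6c2 lower. Fibroblast markers (430.5 to 1909 against 1504 to 2345 CPM) and B cell markers (37.9 to 333 against 2.08 to 138 CPM) overlapped too. Epithelial and mammary tumour markers (12.4 to 24.6 against 23.1 to 146 CPM) and endothelial markers (19.2 to 65.7 against 1.6 to 25.8 CPM) overlapped in a small part of their ranges. The part of these cell type differences in the results below was not tested, and in such bulk samples fewer cells of a type and less RNA per cell cannot be told apart.

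Among the 10 genes the apolipoprotein and transfer protein genes rose in ICAM1-high libraries, while the lipase, binding protein and droplet genes had no member past the threshold in either direction. By edgeR's quasi-likelihood test with Benjamini-Hochberg adjusted p under 0.05 over all genes, 2 of the 10 were higher (Apoe and Pltp) and 0 were lower, against 1.22% of 13575 genes tested that were higher and 0.273% that were lower. At an unadjusted p under 0.05 there were 3 higher and 1 lower, which adds Abca1 and Dgat2, against 7.96% and 8.96% of all genes tested. DESeq2 called 2 higher and 1 lower, where it called 4.3% and 4.78% of all genes. Limma-voom called 3 higher and 1 lower, where it called 3.54% and 2.77% of all genes. The values of the groups did not overlap for 3 members that were higher (Apoe, Pltp and Abca1) and for 1 that was lower (Dgat2), where 7.51% and 3.89% of all genes tested separated in these directions. All 10 passed the filter on low counts. Their log2 fold changes had a median of 0.24, with 6 positive and 4 negative, beside a median of -0.07 over all genes tested. The 10 were chosen with earlier results of these data known, so the shares over all genes are a description, not a test.

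**Figure D1:**
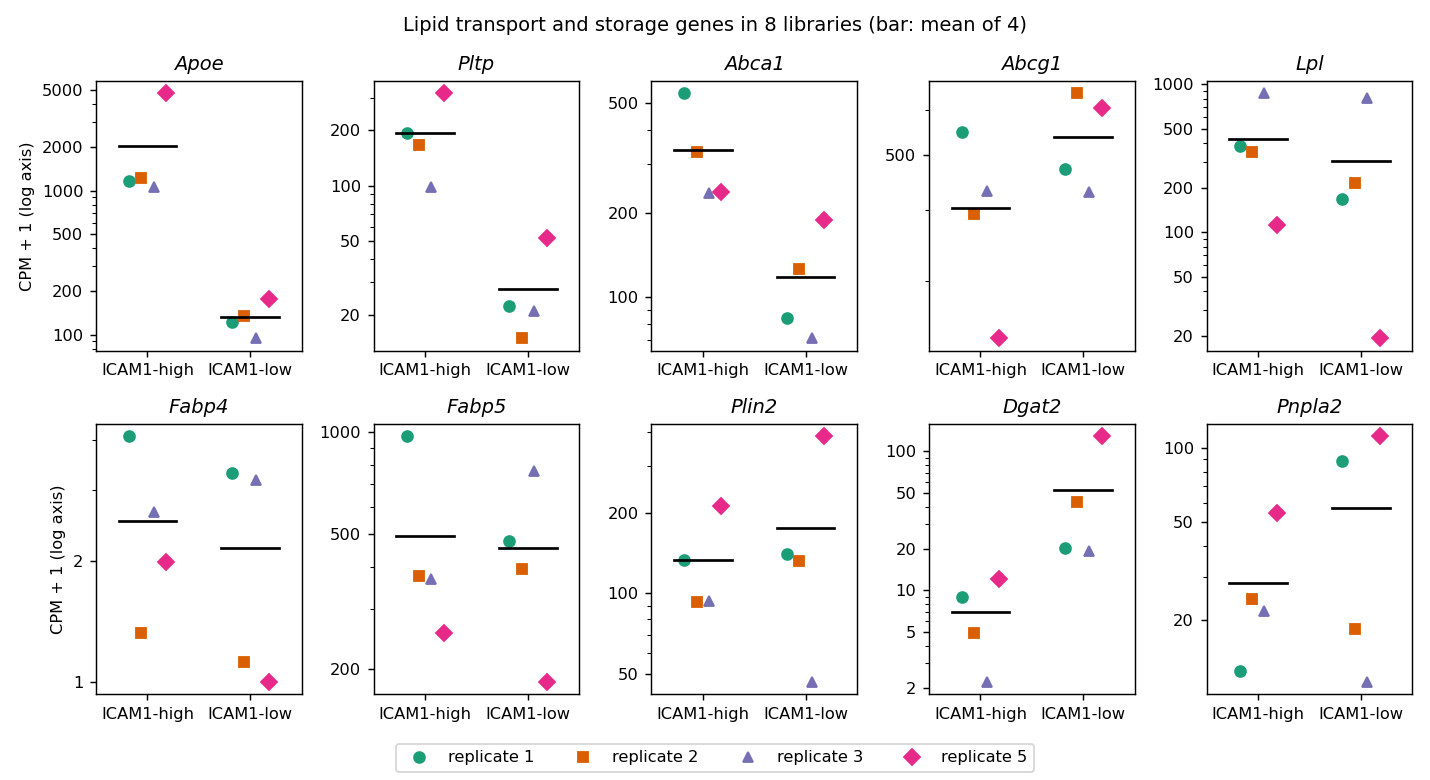
Levels of the 10 genes in each library as CPM + 1 on log axes, with ICAM1-high libraries left and ICAM1-low libraries right in each panel, a symbol per replicate number and a bar at the mean of 4. The ICAM1-high symbols lie above all ICAM1-low symbols for Apoe, Pltp and Abca1 and below them for Dgat2, and the groups overlap for the other 6 genes.

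Apoe encodes apolipoprotein E, which macrophages secrete to carry cholesterol away and which lipoprotein receptors bind. Apoe (ENSMUSG00000002985) had 1172, 1219.6, 1053 and 4753 CPM in the ICAM1-high libraries, against 121, 135, 93.3 and 177 CPM in the ICAM1-low libraries. Every ICAM1-high library was far above every ICAM1-low library, and the libraries numbered 5 were the highest of their groups. The mean was 2049.5 ± 1804 CPM in the ICAM1-high and 132 ± 35 CPM in the ICAM1-low libraries (n = 4 each, SD), or 15.6-fold, with log2 fold change 3.96 ± 0.65 (SE; edgeR adjusted p = 0.017). ICAM1-high replicate 5 carried much of this mean: without it Apoe had a log2 fold change of 3.15, still past the threshold (edgeR adjusted p = 0.0303). The call was lost without ICAM1-low replicate 1 (edgeR adjusted p = 0.0658) and without ICAM1-low replicate 2 (0.0614), with log2 fold changes of 3.92 and 3.97.

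Pltp encodes phospholipid transfer protein, which moves phospholipid between lipoproteins and remodels HDL. Pltp (ENSMUSG00000017754) had 192, 166, 97.9 and 316 CPM in the ICAM1-high libraries, against 21.4, 13.9, 19.9 and 50.9 CPM in the ICAM1-low libraries. The groups were again apart, and as with Apoe the libraries numbered 5 were the highest of each group. The mean was 193 ± 91.1 CPM in the ICAM1-high and 26.5 ± 16.6 CPM in the ICAM1-low libraries (n = 4 each, SD), or 7.28-fold, with log2 fold change 2.86 ± 0.56 (SE; edgeR adjusted p = 0.0352). Leaving out ICAM1-high replicate 1, 2 or 5, or ICAM1-low replicate 1, 2 or 3, ended the call (edgeR adjusted p from 0.0644 to 0.106), with log2 fold changes of Pltp between 2.56 and 3.39 over all 8 such fits.

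Apoe and Pltp are the pair that passed the test, and Abca1 is the third gene whose groups were apart, so the stretches before the starts of these genes are shown here. They are RefSeq promoter windows on GRCm38.p6, another build than the GRCm39 of the counts, each running from 250 bases before the start of the gene to 50 bases after it. Apoe lies at chr7:19699139-19699438 on the minus strand (the most upstream of 3 RefSeq starts), Pltp at chr2:164857659-164857958 on the minus strand and Abca1 at chr4:53159846-53160145 on the minus strand. Capitals mark the recognition site AGGTCA of nuclear receptors, on either strand, and the E-box CACGTG.
Apoe: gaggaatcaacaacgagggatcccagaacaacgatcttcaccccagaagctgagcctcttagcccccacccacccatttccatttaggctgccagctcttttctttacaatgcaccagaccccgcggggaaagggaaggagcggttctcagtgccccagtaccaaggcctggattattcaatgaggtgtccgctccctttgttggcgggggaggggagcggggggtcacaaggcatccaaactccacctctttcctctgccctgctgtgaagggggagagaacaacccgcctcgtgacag
Pltp: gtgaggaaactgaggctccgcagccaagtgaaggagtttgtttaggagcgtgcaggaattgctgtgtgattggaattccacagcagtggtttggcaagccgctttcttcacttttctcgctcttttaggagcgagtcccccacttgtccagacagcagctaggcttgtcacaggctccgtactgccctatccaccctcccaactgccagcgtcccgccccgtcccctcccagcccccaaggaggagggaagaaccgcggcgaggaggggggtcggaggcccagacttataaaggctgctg
Abca1: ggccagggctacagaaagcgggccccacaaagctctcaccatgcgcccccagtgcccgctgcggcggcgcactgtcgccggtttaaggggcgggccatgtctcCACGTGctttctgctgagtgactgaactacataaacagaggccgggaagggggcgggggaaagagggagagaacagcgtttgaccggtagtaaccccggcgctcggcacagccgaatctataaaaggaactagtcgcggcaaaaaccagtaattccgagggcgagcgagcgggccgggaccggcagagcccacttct
The E-box in the Abca1 window begins 147 bases before the start. Neither letter string was found in the Apoe and Pltp windows. Across 32851 RefSeq windows of this length, 7.15% held the E-box and 16.3% the receptor site, which overlaps the direct repeats searched. The 5 members with an entry (Abca1, Apoe, Plin2, Pltp and Pnpla2) had 7 windows, and only that of Plin2 held the receptor site, 218 bases before the start, and an E-box as well. Direct repeats of AGGTCA spaced by 4 bases (called DR4) or by 1 base (DR1) were sought with up to 2 mismatches. DR4 was in 3.02% and DR1 in 3.86% of all windows. Among the members' windows that of Plin2 held a DR1 with 2 mismatches, which contains its receptor site. The others held neither within this limit. Repeats with more mismatches were not sought, so the search cannot show that a window lacks a receptor element.

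Both efflux pump genes were well detected, and neither passed the threshold. Abca1, whose product loads cholesterol and phospholipid onto lipid-poor apolipoproteins, had 539.7, 330.3, 235 and 238 CPM in the ICAM1-high libraries, against 83.2, 125, 70 and 189 CPM in the ICAM1-low libraries. The groups did not overlap, but ICAM1-low replicate 5 came close to the lowest ICAM1-high libraries. Abca1 (ENSMUSG00000015243) averaged 336 ± 143 CPM in the ICAM1-high and 117 ± 53.3 CPM in the ICAM1-low libraries (n = 4 each, SD), a log2 fold change of 1.53 ± 0.48 (SE) that did not pass the threshold (edgeR adjusted p = 0.144). Leaving out the library labelled ICAM1-low replicate 5 gave Abca1 a value of 1.86 on this scale, past the threshold (edgeR adjusted p = 0.0458).

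Abcg1 exports cholesterol to HDL particles that already carry lipid. It had 549.7, 393, 431 and 237 CPM in the ICAM1-high libraries, against 473, 642, 430.3 and 604 CPM in the ICAM1-low libraries. The groups overlapped, and ICAM1-high replicates 2 and 5 lay below all ICAM1-low libraries. Its log2 fold change was -0.42 ± 0.42 (SE; 95% interval -1.33 to 0.50; edgeR adjusted p = 0.649). Per unit of gene length, Abca1 stood at 0.283 to 0.523 of the Abcg1 level in ICAM1-high libraries and at 0.0846 to 0.162 of it in ICAM1-low libraries, a 4.02-fold higher ratio. The difference in this log2 ratio was 2.01 (means -1.23 ± 0.41 in the ICAM1-high and -3.24 ± 0.42 in the ICAM1-low libraries, n = 4 each, SD; two-sided exact permutation test over 70 assignments, p = 0.0286, the smallest that 4 against 4 can give). The ratio was chosen after its values were seen, and any ratio that separates the groups fully gives this p. The p is therefore no evidence of a difference. The ratio does not depend on the scaling of libraries, and its log2 difference was 1.9 to 2.21 when any single library was left out.

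**Figure D2:**
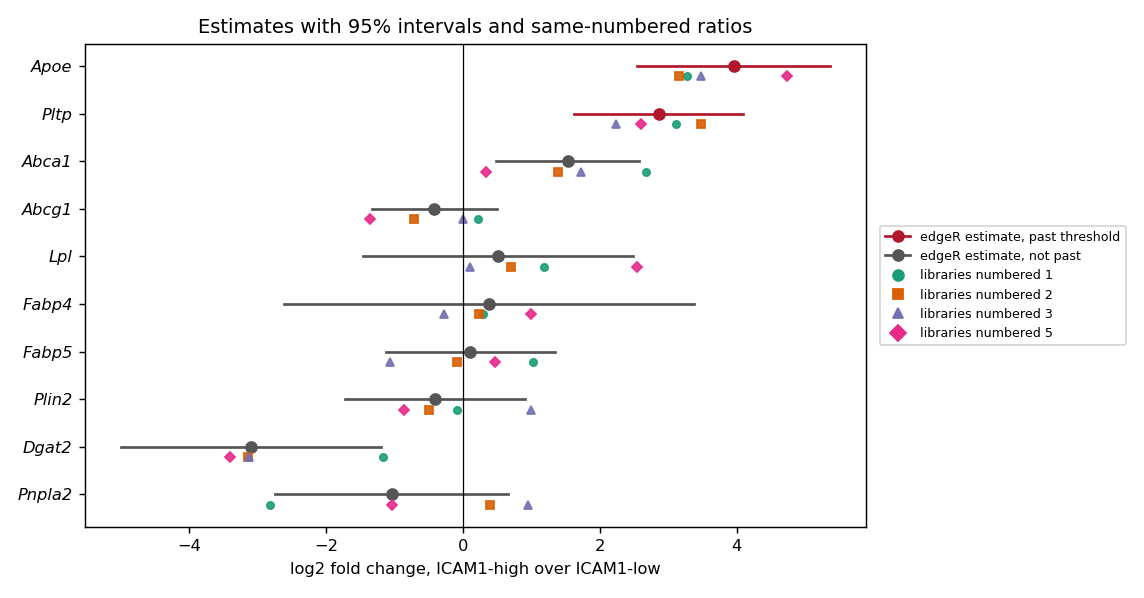
Log2 fold change of ICAM1-high over ICAM1-low for the 10 genes, as the edgeR estimate with its 95% interval (large points and lines) and as the ratio of each pair of same-numbered libraries from CPM + 1 (small symbols below). The intervals of Apoe, Pltp, Abca1 and Dgat2 lie to one side of 0, and only the estimates of Apoe (3.96) and Pltp (2.86) passed the adjusted threshold.

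Lpl encodes lipoprotein lipase, which frees fatty acids from circulating triglyceride. Lpl had 381, 349.9, 869 and 111 CPM in the ICAM1-high libraries, against 166, 214, 805 and 18.2 CPM in the ICAM1-low libraries. The libraries numbered 3 were the highest and those numbered 5 the lowest in both groups. Each ICAM1-high library was above its same-numbered ICAM1-low library, by 1.19, 0.71, 0.11 and 2.55 on the log2 scale, but the log2 fold change of 0.51 ± 0.90 was not past the threshold (SE; 95% interval -1.46 to 2.48; edgeR adjusted p = 0.815).

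Fabp5 encodes the fatty acid binding protein of epidermis and macrophages, an intracellular carrier. It had 969, 374, 368 and 254 CPM in the ICAM1-high libraries, against 474, 394, 767 and 182 CPM in the ICAM1-low libraries. The groups overlapped, with the lowest value of each in the library numbered 5. Its log2 fold change was 0.11 ± 0.56 (SE; 95% interval -1.13 to 1.35; edgeR adjusted p = 0.942). Fabp4, the adipocyte and macrophage member of the same family, was barely detected, at 3.09, 0.322, 1.65 and 0.994 CPM in the ICAM1-high libraries and 2.31, 0.119, 2.18 and 0 CPM in the ICAM1-low libraries. The counts behind the ICAM1-low values were 45.2, 2, 41 and 0, so those of replicates 2 and 5 were below the floor. No difference of Fabp4 was detectable at this depth (log2 fold change 0.38 ± 1.37 SE; 95% interval -2.61 to 3.38; edgeR adjusted p = 0.917). Of 8 adipocyte markers 3 were in the table: Plin1 and Cidea did not exceed 0.102 CPM in any library, and Retn reached 7.36 CPM in ICAM1-low replicate 5.

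None of the 3 droplet genes passed the threshold. Plin2 encodes the perilipin that coats droplets in most cells, and it had 132, 92.1, 92.5 and 212 CPM in the ICAM1-high libraries, against 139, 131, 45.7 and 385 CPM in the ICAM1-low libraries. The ICAM1-high values lay within the wider range of the ICAM1-low values. The log2 fold change of Plin2 was -0.41 ± 0.60 (SE; 95% interval -1.72 to 0.91; edgeR adjusted p = 0.775).

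Pnpla2 encodes adipose triglyceride lipase, the enzyme that starts triglyceride breakdown on the droplet. It had 11.5, 23.4, 20.8 and 53.5 CPM in the ICAM1-high libraries, against 87.2, 17.5, 10.3 and 110 CPM in the ICAM1-low libraries. The ICAM1-high library was the higher one for replicates 2 and 3 and the lower one for replicates 1 and 5, so no common direction was seen. Its log2 fold change was -1.04 ± 0.78 (SE; 95% interval -2.74 to 0.66; edgeR adjusted p = 0.527).

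Dgat2 encodes an acyltransferase of the last step of triglyceride synthesis. It had 7.98, 3.91, 1.21 and 11 CPM in the ICAM1-high libraries, against 19.1, 42.2, 18.3 and 127 CPM in the ICAM1-low libraries. All ICAM1-high libraries were below all ICAM1-low libraries, and ICAM1-low replicate 5 stood well above the rest of its group. The mean was 6.02 ± 4.33 CPM in the ICAM1-high and 51.6 ± 51.3 CPM in the ICAM1-low libraries (n = 4 each, SD), a log2 fold change of -3.10 ± 0.87 (SE) that did not pass the threshold (edgeR adjusted p = 0.109). Leaving out ICAM1-low replicate 5 gave Dgat2 a value of -2.15 on this scale (edgeR adjusted p = 0.141). DESeq2 called Dgat2 lower (adjusted p = 0.00276), as did limma-voom with sample weights (adjusted p = 0.0372).

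Several of these genes varied widely among the libraries of a group. In ICAM1-low libraries the order of Lpl from high to low was replicate 3, 2, 1 and 5, and Plin2 and Pnpla2 were lowest in replicate 3 and highest in replicate 5. In ICAM1-high libraries Plin2 and Pnpla2 were likewise highest in replicate 5, where Lpl and Fabp5 were lowest. The libraries numbered 5 also held the most Icam1 and Apoe of their groups. This is a description of 4 libraries per group, chosen after the values were seen and not tested.

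**Figure D3:**
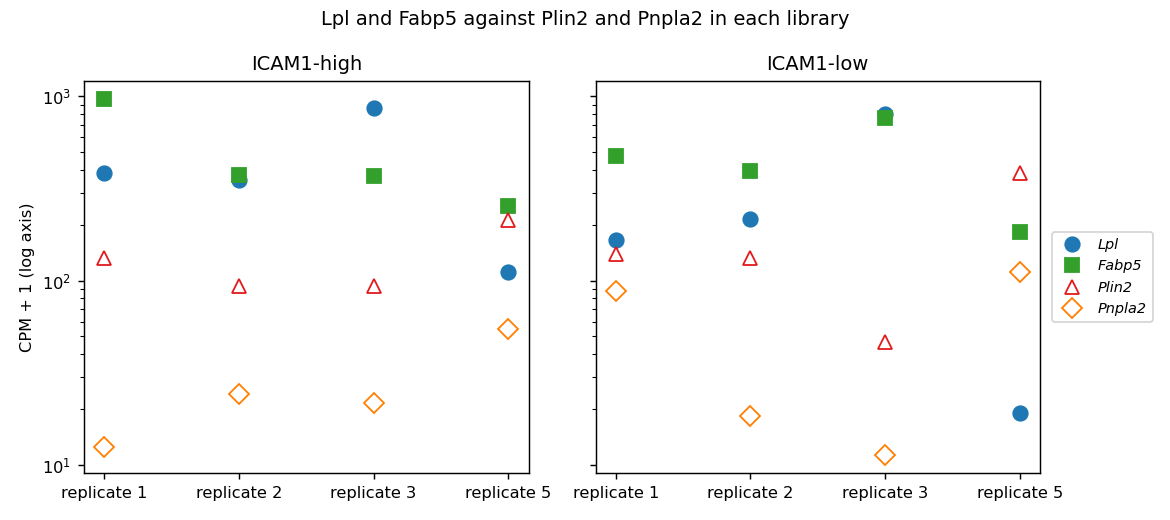
Levels of Lpl and Fabp5 (filled symbols) and of Plin2 and Pnpla2 (open symbols) as CPM + 1 on a log axis, by replicate number, with ICAM1-high libraries in the left and ICAM1-low libraries in the right panel. In ICAM1-low replicate 3 Lpl stands at 805 and Plin2 at 45.7 CPM, and in ICAM1-low replicate 5 Lpl stands at 18.2 and Plin2 at 385 CPM.

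Set against the gene length in the table, as length-scaled abundance (TPM) computed from the estimated counts, the order of the 10 genes differed between the groups. In ICAM1-high libraries Apoe led with a mean of 4926 TPM (2600 to 10736), above Fabp5 at 929 TPM (443 to 1661), and their ranges did not overlap. Lpl followed at 230.3 TPM, Pltp at 209, Plin2 at 154, Abcg1 at 124, Abca1 at 52.5 and Pnpla2 at 31.7 TPM, each with a range that overlapped its neighbour's. Dgat2 at 5.06 and Fabp4 at 1.18 TPM were the lowest, their ranges overlapped, and both lay below all values of Pnpla2.
In ICAM1-low libraries Fabp5 led with 861 TPM (269.7 to 1460.4), and Apoe came next at 306 TPM (229.8 to 347), overlapping the range of Fabp5. Plin2 at 184, Abcg1 at 154, Lpl at 149, Pnpla2 at 58.8, Dgat2 at 39.8, Pltp at 26.4 and Abca1 at 16.9 TPM followed, with overlapping neighbours except that all Abca1 values lay above those of Fabp4 at 0.918 TPM. Apoe thus made up 52.0, 68.6, 62.8 and 89.9% of the summed TPM of the 10 genes in ICAM1-high replicates 1, 2, 3 and 5, against 17.1, 20.4, 9.86 and 24.9% in ICAM1-low libraries.

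The macrophage marker sums moved with these genes to different degrees. Per 1000 CPM of the 11 macrophage markers in the same library, Pltp stood at 21.2 to 39 CPM in the ICAM1-high and 20 to 54.5 CPM in the ICAM1-low libraries, which overlapped. Apoe stood at 157 to 431 CPM in the ICAM1-high and 96.2 to 194 CPM in the ICAM1-low libraries, also overlapping. Abcg1, at 21.4 to 93.5 CPM in the ICAM1-high and 443 to 923 CPM in the ICAM1-low libraries, was apart, as were Dgat2, at 0.262 to 1.07 against 18.8 to 136 CPM, and Fabp5, at 23 to 129.6 against 195 to 791 CPM. Plin2, at 17.7 to 21.6 CPM in the ICAM1-high and 47.1 to 412 CPM in the ICAM1-low libraries, varied little among the ICAM1-high libraries on this scale. By construction, a gene that differed less between the groups than the markers did has a lower ratio in the ICAM1-high libraries, and these ratios were not tested. Ratios to the neutrophil markers, which summed lower in the ICAM1-high libraries, are not given. A gene that was apart on the macrophage scale, such as Dgat2, may overlap on that one.

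**Figure D4:**
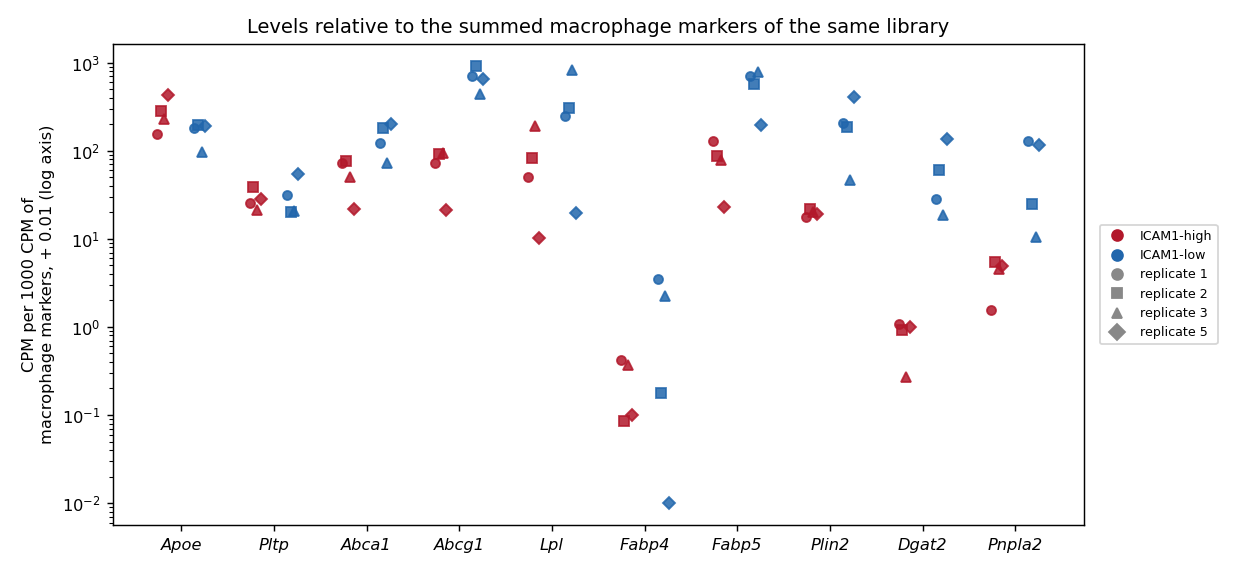
CPM of each gene per 1000 CPM of the 11 summed macrophage markers of the same library, with 0.01 added, on a log axis; ICAM1-high libraries are red and stand left of the blue ICAM1-low libraries, with a symbol per replicate number. Apoe and Pltp overlap between the groups on this scale, while Abcg1, Fabp5, Plin2, Dgat2 and Pnpla2 are lower in all ICAM1-high libraries.

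The genes whose levels followed a member most closely were sought among 7716 genes tested whose average log2 CPM was at least 4, by Pearson's r of log2(CPM + 1) over the 8 libraries. The libraries form 2 groups, so a gene that differs between the groups correlates with any other that does, and the values are descriptions. Apoe was followed most closely by Aif1 (r = 0.99), Lgmn (0.988) and Il21r (0.987), and Pltp by Cd68 (0.991), C1qa (0.986) and Ctss (0.981). Aif1, Cd68 and C1qa are widely used as macrophage or microglia genes, and Lgmn and Ctss encode lysosomal proteases. Abca1 was nearest to Otulin (0.971), Lpl to Spred1 (0.977), Plin2 to Sp140 (0.992) and Dgat2 to Ccpg1 (0.979).

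Other genes of lipid handling were read from 10 lists of 76 genes, of which 71 were in the table and 59 were tested; the other 5 were not analysed here. Of these 59, 2 were higher and 0 lower by edgeR, where 1.22% and 0.273% of all genes tested were called. At an unadjusted p under 0.05 there were 7 higher and 8 lower, beside 7.96% and 8.96% of all genes. DESeq2 called 4 higher and 4 lower, beside its 4.3% and 4.78% of all genes, and limma-voom 4 higher and 3 lower, beside its 3.54% and 2.77%. The median log2 fold change of the 59 was -0.39, with 21 positive and 38 negative, beside -0.07 over all genes tested. The groups did not overlap for 9 higher and 4 lower genes, beside the 7.51% and 3.89% given above. These lists too were chosen with earlier results of these data known, so the shares are a description.

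The 2 genes that rose stand at the entry of modified lipoproteins and at the release of stored cholesterol. Msr1, the class A scavenger receptor, had 357, 238, 191 and 310.2 CPM in the ICAM1-high libraries, against 12.3, 11, 15 and 29 CPM in the ICAM1-low libraries, with log2 fold change 4.03 ± 0.50 (SE; edgeR adjusted p = 0.00992). Nceh1, a hydrolase of cholesterol esters, had 261, 95.9, 133 and 116 CPM in the ICAM1-high libraries, against 26.3, 32.6, 12.8 and 18.9 CPM in the ICAM1-low libraries, with log2 fold change 2.74 ± 0.51 (SE; edgeR adjusted p = 0.0272). Both genes separated the groups completely. The Msr1 call was lost without ICAM1-low replicate 1 (edgeR adjusted p = 0.0521), and the Nceh1 call in 6 of the 8 fits that leave out 1 library, those without any ICAM1-high library and without ICAM1-low replicate 1 or 2 (edgeR adjusted p from 0.0583 to 0.101).

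In the other lists no gene passed, and the gene with the smallest p in each was as follows. Npc2, which hands cholesterol out of the lysosome, had 1788, 1022, 640.2 and 858 CPM in the ICAM1-high libraries, against 209, 184, 269.6 and 337 CPM in the ICAM1-low libraries (log2 fold change 2.11 ± 0.48 SE; edgeR adjusted p = 0.0541). Nr1h3, the gene of liver X receptor alpha, had 24.5, 21.7, 12 and 26.6 CPM in the ICAM1-high libraries, against 0.871, 1.48, 0.106 and 3.42 CPM in the ICAM1-low libraries (log2 fold change 3.86 ± 0.97 SE; edgeR adjusted p = 0.076). Its ICAM1-low counts were 17, 25, 2 and 39, so that of replicate 3 was below the floor. All ICAM1-high libraries were above all ICAM1-low libraries for both genes, and Npc2 was past the threshold in 8 and Nr1h3 in 7 of 17 alternatives, DESeq2 and limma-voom among them for both. Leaving out ICAM1-low replicate 5 gave an edgeR adjusted p of 0.0272 for Npc2 and 0.0321 for Nr1h3, and leaving out both libraries numbered 5 gave 0.0287 for Npc2 and 0.053 for Nr1h3.

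Dgat1, the other triglyceride acyltransferase, had 38.8, 35.8, 70.1 and 56.2 CPM in the ICAM1-high libraries, against 166, 156, 102 and 1363 CPM in the ICAM1-low libraries. As for Dgat2, all ICAM1-high libraries were the lower ones and ICAM1-low replicate 5 stood far above its group (log2 fold change -3.15 ± 0.83 SE; edgeR adjusted p = 0.0877). Without that library the value of Dgat1 was -1.49 (edgeR adjusted p = 0.0637). Dgat1 was past the threshold in 2 of 16 alternatives, limma-voom (adjusted p = 0.0381) and no filter (edgeR adjusted p = 0.04). G0s2, which encodes an inhibitor of the lipase made from Pnpla2, and Srebf1, a regulator of fatty acid synthesis, had all ICAM1-high libraries below all ICAM1-low libraries, and both were singled out after their values were seen. G0s2 averaged 9.18 ± 3.02 CPM in the ICAM1-high and 50.3 ± 37.1 CPM in the ICAM1-low libraries (n = 4 each, SD; log2 fold change -2.45; edgeR adjusted p = 0.0742), and Srebf1 23.6 ± 20.4 CPM in the ICAM1-high and 137 ± 79.2 CPM in the ICAM1-low libraries (log2 fold change -2.53; edgeR adjusted p = 0.137). Each was past the threshold in 2 of 17 alternatives, DESeq2 and limma-voom. The adjusted p was 0.00157 with DESeq2 and 0.0337 with limma-voom for G0s2, and 0.0106 and 0.0217 for Srebf1.

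The 7 genes of fatty acid synthesis all had log2 fold changes below 0, the median being -0.91. None was past the threshold, and the groups overlapped for all 7. Of the 13575 genes tested, 7096 were negative. The smallest p among the 7 was that of Fasn, fatty acid synthase, at 27.7 ± 14.7 CPM in the ICAM1-high and 78.6 ± 46.8 CPM in the ICAM1-low libraries (n = 4 each, SD; log2 fold change -1.5; edgeR adjusted p = 0.239). Between the libraries numbered 5, the ICAM1-high one was higher for Fasn, Acaca, Elovl5 and Elovl6 (0.82, 1.9, 0.64 and 0.18 on the log2 scale). It was lower for Acly, Scd1 and Scd2. Fatty acid oxidation genes were evenly split, 4 positive and 4 negative, and led by Acadm, a medium-chain acyl-CoA dehydrogenase (log2 fold change 1.14; edgeR adjusted p = 0.303). Apoc2, the activator of lipoprotein lipase, had a log2 fold change of 1.96 with overlapping groups (edgeR adjusted p = 0.274). Apod, the other apolipoprotein gene tested and named after its values were seen, had 136, 206, 178 and 7.68 CPM in the ICAM1-high libraries, against 1083, 1139, 1627 and 2.72 CPM in the ICAM1-low libraries. The libraries numbered 5 were the lowest of each group, and the log2 fold change of -2.87 missed the threshold (edgeR adjusted p = 0.287) but passed it without ICAM1-low replicate 5 (-3.27, edgeR adjusted p = 0.0483) and without both libraries numbered 5 (-2.87, edgeR adjusted p = 0.0115). For the droplet coat gene Plin3 this value was -1.07 (edgeR adjusted p = 0.342).

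**Figure D5:**
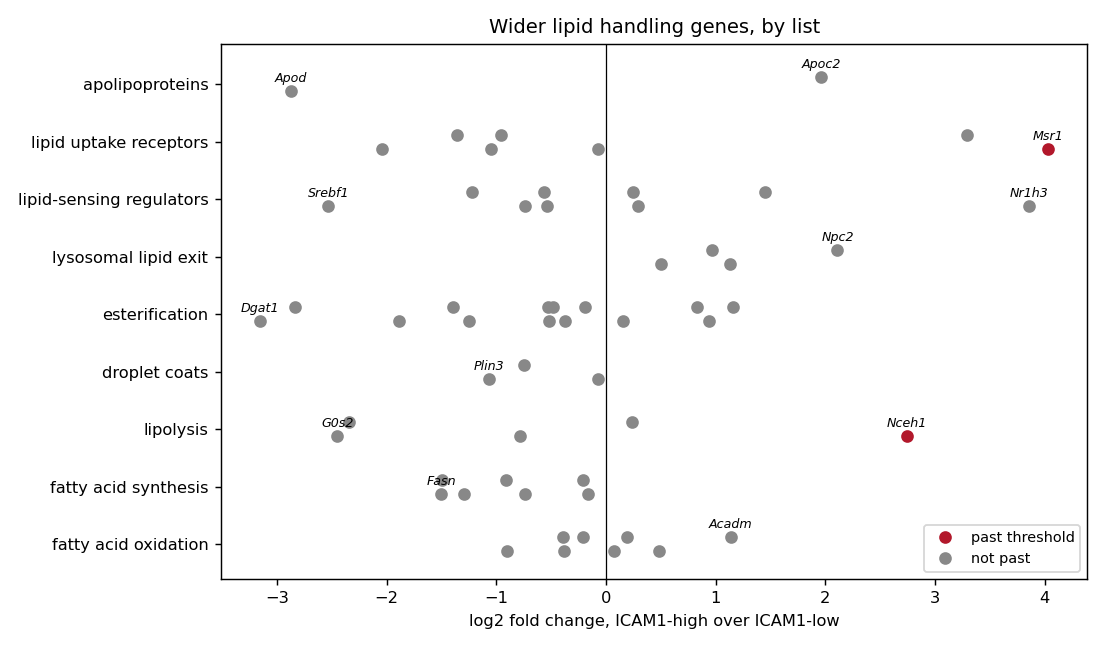
Log2 fold change of ICAM1-high over ICAM1-low for the 59 tested genes of the wider lipid lists, 1 point per gene in a row per list, with the genes named in the text labelled. The 2 red points, Msr1 (4.03) and Nceh1 (2.74), passed the threshold. All 7 points of fatty acid synthesis lie left of 0, though the values of the groups overlapped for each of these 7 genes.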

How the data were processed

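RNA was measured in 8 libraries, 4 ICAM1-high and 4 ICAM1-low, grouped by their titles. Per the submitters' processing notes, Trim Galore 0.6.6, Salmon 1.9.0 and the build GRCm39 (mm39) were used; what each step did, the annotation and the settings are not given. The authors deposited estimated counts, not all whole, for each gene in 1 table with a gene length. Repeated identifiers were kept once (25572 from 25669 rows), and 6482 symbols were filled from a reference table of gene names.

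Counts were rounded, filtered with filterByExpr (13575 genes kept), scaled by TMM and tested with edgeR 4.0.16 in R 4.3.3 (robust quasi-likelihood, group as the only term; threshold Benjamini-Hochberg adjusted p under 0.05 over all genes). A standard error is the size of the log2 fold change over the square root of F. Pair ratios and correlations add 1 CPM. No molecular identifiers are mentioned, so floors cover counting error only, and the small input (150 pg) limits precision.

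Members and lists were chosen with earlier results of these data known. Genes named by rule were the members, the genes of the wider lists past the threshold (or, in a list with none, that with the smallest p), the 3 closest in pattern to each member, and Icam1. The alternatives changed the scaling (RLE, upper quartile, none), the test (DESeq2 1.42.0, limma-voom from limma 3.58.1 with sample weights), the filter (none, or 10 CPM in 4 libraries), added a replicate term, or left out libraries. Promoter windows came from RefSeq.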

Additional observations from a re-analysis of the deposited data

Results flagged for a closer look

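Among 66 groups of 4 values examined, 7 held 1 library far from the other 3 by Dixon's ratio. The limit used flags about 1 in 20 groups of independent, normally distributed values. CPM need not be normal and the groups share libraries, so the 7 cannot be read as more than chance gives. Apoe reached 4753 CPM in ICAM1-high replicate 5, against 1053 to 1219.6 CPM in the other ICAM1-high libraries. Fabp5 reached 969 CPM in ICAM1-high replicate 1, against 254 to 374 CPM in the others of that group. ICAM1-low replicate 5 stood apart for Dgat1 (1363 CPM, the others 102 to 166), G0s2 (105 CPM, the others 24.8 to 35.7), Icam1 (138 CPM, the others 4.31 to 18.7) and the sum of the adipocyte markers (7.36 CPM, the others 0 to 1.23), which there was all Retn. B cell markers summed to 138 CPM in ICAM1-low replicate 2, against 2.08 to 7.98 CPM in the other ICAM1-low libraries.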

How the results depend on the processing

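Over all genes, 166 were higher and 37 lower. The counts were 258 and 31 with library sizes only, 584 and 649 with DESeq2, 480 and 376 with limma-voom, 245 and 120 with no filter, 184 and 61 with the strict filter, 219 and 190 without both libraries numbered 5, and 4 to 337 and 0 to 241 when single libraries were left out. Of the 10 members, 2 were higher and 0 lower by edgeR; 1 was lower with DESeq2, limma-voom, no filter and the replicate block, and 0 to 3 were higher and 0 lower when 1 library was left out. Of the wider lists, 2 were higher and 0 lower; DESeq2 gave 4 and 4, limma-voom 4 and 3, no filter 4 and 1, library sizes only and the strict filter 4 and 0, omission of both libraries numbered 5 gave 3 and 1, and omission of 1 library 0 to 4 and 0 to 1. Among the omissions of 1 library, the counts over all genes were lowest without ICAM1-low replicate 1 and highest without ICAM1-low replicate 5.

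Leaving out 1 library gave log2 fold changes of 3.15 to 4.18 for Apoe, 2.56 to 3.39 for Pltp, 1.2 to 1.86 for Abca1 and -3.51 to -2.15 for Dgat2. Abca1 was past the threshold at 1.62 with limma-voom and at 2 without both libraries numbered 5. Dgat2 was past it at -3.2 with DESeq2, -2.93 with limma-voom, -3.05 with no filter and -3.07 with the replicate block. Signs turned for 4 members that were not past the threshold. When 1 library was left out, Lpl ran from -0.09 (without ICAM1-high replicate 3) to 1.68, Plin2 from -0.72 to 0.32 (without ICAM1-low replicate 5), Fabp4 from -0.26 (ICAM1-high replicate 1 omitted; -0.03 with ICAM1-low replicate 5 omitted) to 0.96, and Fabp5 from -0.47 (ICAM1-high replicate 1 omitted; -0.15 with ICAM1-low replicate 5 omitted) to 0.49. Plin2 was 0.01 without both libraries numbered 5, and Fabp5 was -0.14 with limma-voom. The cause was not tested. Abcg1 and Pnpla2 kept their sign and stayed short of the threshold in all 17 alternatives.

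The median of all genes moved by 0.24 with library sizes only, 0.13 with upper-quartile scaling, 0.15 with limma-voom and 0.16 with the replicate block. That block called 280 genes higher and 261 lower, and put Nr1h3 past the threshold (4.46, edgeR adjusted p = 0.0352). Same-numbered libraries correlated at -0.18, 0.11, 0.17 and 0.37 in their deviations, and ICAM1-high replicate 1 correlated best with ICAM1-low replicate 3; neither this nor the labels establishes that the numbers pair the libraries. A length offset was not run, since the table has 1 length per gene, and Fabp4 was not tested under the strict filter.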
